A study of Saccharomyces cerevisiae with 14 samples.

Results

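The comparison described here is the response of the budding yeast strain BY4742 to methyl methanesulfonate (MMS). It rests on 2 of the 14 membrane arrays of the study: 1 array of cells given 0.0125% MMS for 1 h in rich YPD medium and 1 array of mock-treated cells of the same strain, medium and time. Both were chosen by their sample labels. The labels describe mid log-phase cultures divided into aliquots before treatment, and RNA that was reverse transcribed with a 33P-labelled nucleotide and hybridised to a membrane carrying each gene as 2 spots. Arrays of the same strain, medium and time shared 1 membrane, which was stripped between hybridisations. Neither side was replicated, and the labels do not say which sample was hybridised first. The other 12 arrays hold strain FF18984 in YPD or in minimal F1 medium, mock-treated or given 0.00125% or 0.0125% MMS for 30 min or 1 h.

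BY4742 is a laboratory haploid of mating type alpha, derived from S288C, with deletions in the marker genes HIS3, LEU2, LYS2 and URA3. MMS methylates the bases of DNA, and the 3-methyladenine it leaves blocks replicative polymerases until the glycosylase Mag1 starts its excision. Stalled forks activate the kinases Mec1, Rad53 and Dun1, which lift the repressor Rfx1 (Crt1) from the ribonucleotide reductase genes and lower the inhibitor Sml1, so that more deoxynucleotides are made. MMS also reacts with proteins and with glutathione, and yeast genes of chaperones, the proteasome and redox defence are known to respond to it, while ribosomal protein genes are known to be turned down in many stresses.

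A gene was compared when both of its spots lay above the local background in both arrays, which held for 4940 of the 6094 measured open reading frames. Signals are given as multiples of the array's median positive spot signal, which was 54.2 PSL (the imager's intensity unit) in mock and 74.8 PSL at the high dose. A log2 difference is the level at 0.0125% MMS minus the level in mock after normalization, so that 1 stands for a 2-fold higher level. It includes a small pseudocount that understates the change of dim genes. Signals are printed before quantile normalization, and a log2 difference can exceed the change they show. The first spot of PEP4, a gene called higher, went from 5.90 to 10.4, which is less than 2-fold, with a log2 difference of 1.17. A gene was called higher or lower when each of its spots differed at least 2-fold in the same direction after normalization. This rule itself makes it likely that the mock and high-dose spots of a called gene do not overlap. The 2 spots share membrane and label, so they measure the error of the spot and not that of the culture, and no p-value is given for this pair of arrays. In bulk RNA, fewer cells that express a gene and less RNA per cell cannot be told apart.

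The strain label was checked on mating-type and marker genes. Of the 4 alpha-specific genes 3 were above the range of the FF18984 mock and high-dose YPD arrays in both BY4742 arrays, namely the pheromone genes MF(ALPHA)1 and MF(ALPHA)2 and the a-factor receptor gene STE3, and SAG1 lay within it. Of the 7 a-specific genes 6 were below that range and BAR1 lay within it. The alpha-factor receptor gene STE2 was among the dimmest of these, at a percentile of 6.89 among all genes in mock and 17.03 at the high dose. Of the deleted markers, LEU2 was dim, at percentiles of 26.8 and 22.0. URA3, with log2 levels of 1.11 and 1.47, lay below the FF18984 YPD range of 6.53 to 7.75, but it was not dim, at percentiles of 75.5 and 80.5. LYS2 went against the label, at a percentile of 98.3 in mock and 97.0 at the high dose. Its log2 levels of 4.25 and 3.72 were above the FF18984 YPD range, which ended at 2.58. HIS3 lay at percentiles of 75.9 and 69.7, within the FF18984 YPD range. The spots cannot tell a gene's own RNA from RNA that cross-hybridises.

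Differences between the 2 arrays followed the position on the membrane. By the coordinates in the files, genes lie in 384 wells of each of 3 fields, with genes of several plates at each well, and a gene's log2 difference correlated across genes with the median difference of the other genes in its own and the 8 adjoining wells (Pearson r = 0.52 over 4940 genes, which are not independent). Of the genes called lower, 66.4% lay where this neighbour median was below −0.3, against 16.6% of all compared genes. Of the genes called higher, 40.7% lay where it was above 0.3, against 8.81%. The corresponding correlation was 0.26 to 0.52 in the FF18984 pairs. A position-adjusted difference, which is the log2 difference minus the neighbour median, is therefore given beside the called genes whose values are described below. It is given for only some of the genes not called. It was added after the data had been seen, and a correlation of 0.21 between genes of the same well remained after it. The part of membrane position in each call was not tested.

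**Figure D1:**
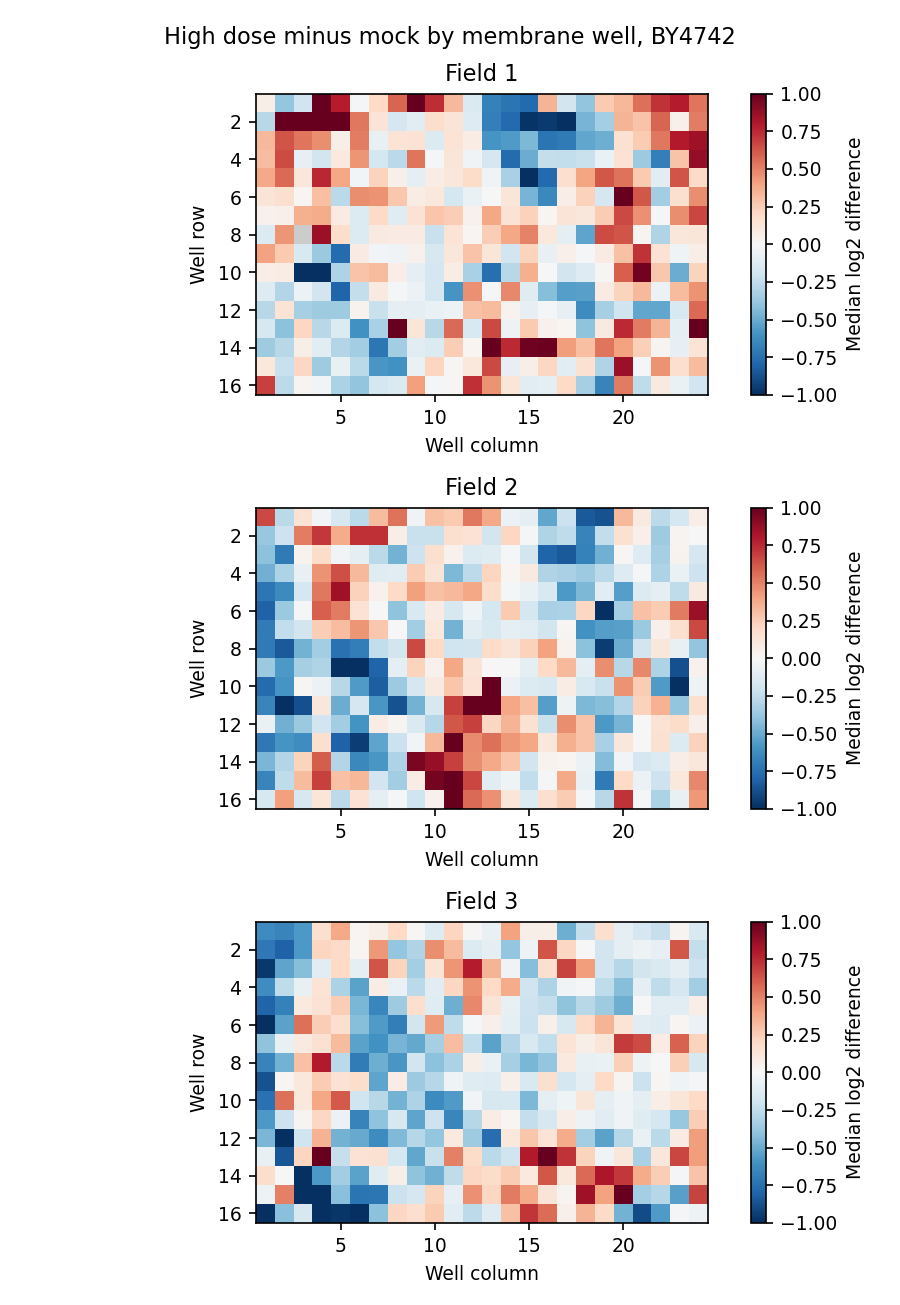
Median log2 difference (0.0125% MMS minus mock) of the compared genes in each of the 384 wells of the 3 fields of the BY4742 membrane, with well row and column on the axes. Red wells were brighter at the high dose, blue wells dimmer and grey wells hold no compared gene, and the colours form patches that span several wells.

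The high dose left most genes within 2-fold of mock. The log2 differences had an SD of 0.57 and a median of −0.05 over the 4940 genes, and they ran from −3.36 to 2.83. The 2 spots of a gene gave the same direction for 3795 genes, which is 76.8%, and the correlation of their differences was 0.70. Of all compared genes 2266 lay above 0 and 2663 below. In all, 108 genes were called higher (2.19% of those compared) and 113 lower (2.29%). After the position adjustment 74 were called higher (1.5%) and 49 lower (0.992%), and of these 59 and 41 were among the genes called without it. Higher calls also depended on the scaling: with each array centred on its median in place of quantile normalization 68 of the 108 were still called, and all 113 lower calls were. Genes named below whose call was lost with median centring are marked as such, and none of the list counts below has a test. The shares of 2.19% higher and 2.29% lower over all compared genes apply beside every list count below. Calls lost on position adjustment are not marked gene by gene. A position-adjusted value under 1 in size is no longer a call. SED1, MET17, YFL-TYB, RPS27A, MCM6 and YOR296W lost their calls although their adjusted values were beyond 1 in size. With cyclic loess the lower calls of GCN4, HOM6 and RPL30 were lost. The limit of the call passed between SEC4, whose weaker spot differed by 0.999 on the log2 scale, and RPL30, at 1.000.

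**Figure D2:**
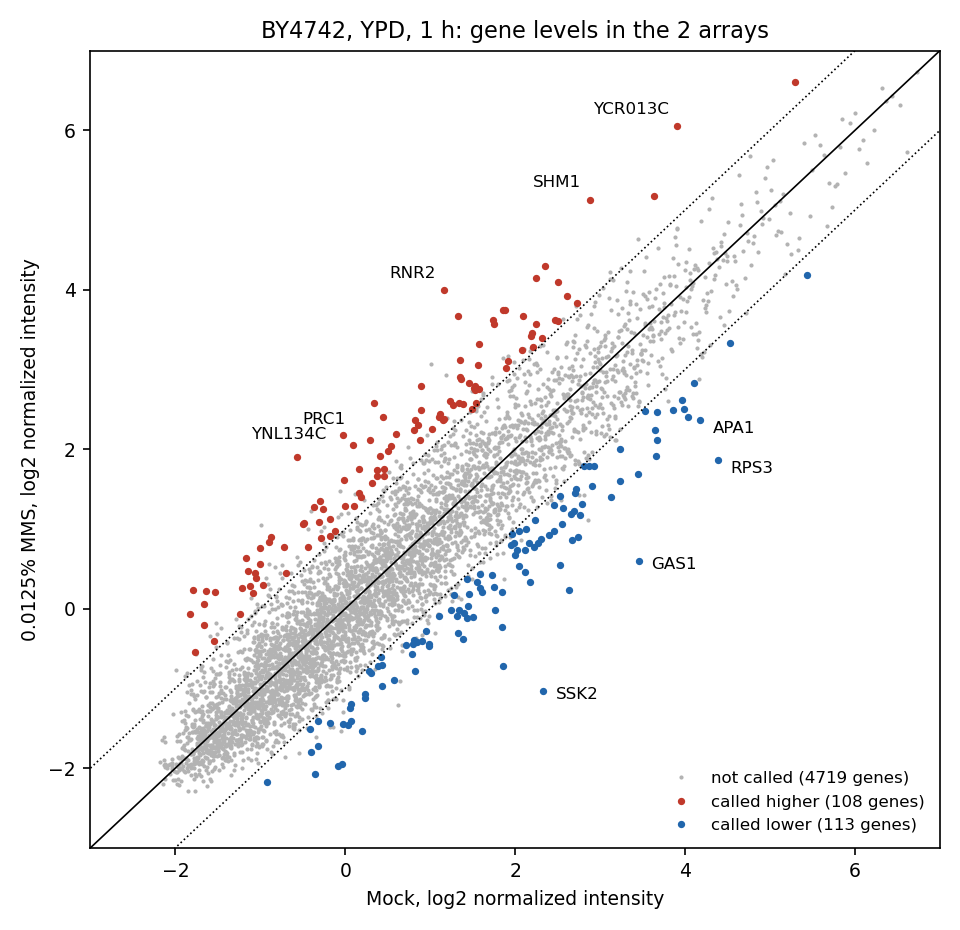
Log2 normalized intensity of the 4940 compared genes of BY4742 in the mock array (horizontal) and in the array of 0.0125% MMS (vertical), with lines at equal level and at 2-fold. The 108 genes called higher are red and the 113 called lower are blue, and RNR2 and SSK2 lie among the farthest from the line of equal level.

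Ribonucleotide reductase was led by 1 of its genes. RNR2, which encodes the small subunit that carries the tyrosyl radical, had spots at 2.68 and 2.34 times the array median in mock and 13.9 and 14.7 at the high dose. Every high-dose spot was above every mock spot, as the rule of the call makes likely. The log2 difference of 2.83 (spots 2.71 and 2.96) was the highest of all compared genes. It was 2.58 after position adjustment. RNR4, the other small subunit gene, had spots at 8.32 and 7.45 in mock and 10.2 and 10.2 at the high dose, a difference of 0.68 that became 1.20 after adjustment. RNR3, the large subunit isoform known for its induction by DNA damage, went from 1.21 and 0.95 to 2.36 and 2.49. Its difference was 1.01 (0.48 after adjustment), and it was not called because its first spot differed by 0.82. The main large subunit gene RNR1 went from 4.04 and 5.11 to 5.48 and 5.89, with a difference of 0.52 (0.45 after adjustment). The spots of all 4 subunit genes were higher at the high dose than in mock, but RNR2 alone of them passed the call. With median centring the differences of RNR4 and RNR1 shrank to 0.26 and 0.20. Among the regulators, the kinase gene DUN1 differed by 0.61 with spots that disagreed (1.04 and 0.19), the inhibitor gene SML1 by 0.27, and DIF1, which brings the small subunit into the nucleus, by −0.11. Over the 8 genes of this list that were compared, 1 was called and 7 lay above 0, with a median of 0.65 (0.48 after adjustment) beside −0.05 for all compared genes.

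The broader list of genes known to be induced by DNA damage had 19 compared members, of which 15 lay above 0. Of the 19, 2 were called higher, beside 2.19% of all compared genes, and the median was 0.46 (0.47 after adjustment). The called members were RNR2 and RAD54, the translocase gene of homologous recombination. RAD54 had spots at 1.20 and 1.70 in mock and 3.58 and 3.53 at the high dose, a difference of 1.30 that was 0.77 after adjustment, and its call was lost with median centring. RNR3 had the same neighbour median as RAD54 (0.53 over 38 neighbours), so these 2 values are not separate in position. MAG1, the gene of the 3-methyladenine glycosylase, had spots at 3.71 and 6.88 in mock and 8.55 and 8.71 at the high dose. The mock spots disagreed, so that the differences were 1.50 on one and 0.67 on the other, and MAG1 was not called. Its mean difference was 1.09 (0.88 after adjustment). The stress gene DDR48 went from 2.03 and 1.91 to 3.26 and 3.29 (0.76, and 0.98 after adjustment). The photolyase gene PHR1 differed by 0.78. The ubiquitin-conjugating enzyme gene UBC5 differed by 1.01, whereas the polyubiquitin gene UBI4 (−0.69) and the DNA ligase gene CDC9 (−0.74) lay on the other side of 0.

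In homologous recombination 2 of 13 compared genes were called higher, beside 2.19% of all compared genes. They were RAD54 and RFA2, which encodes the middle subunit of the single-strand binding protein RPA. RFA2 had spots at 0.92 and 0.55 in mock and 2.63 and 2.63 at the high dose, a difference of 1.51 (1.42 after adjustment), while the other RPA subunit genes RFA1 and RFA3 differed by 0.23 and −0.10. No gene was called among 8 compared genes of base excision and alkylation repair (median −0.23), 17 of excision repair, postreplication repair and translesion synthesis (0.08) or 9 of the DNA damage checkpoint (0.33). The position adjustment turned the first of these medians to 0.07 and the last to −0.15. In the checkpoint list the clamp subunit genes DDC1 and RAD17 differed by 0.96 and −0.91, and 7 members, MEC1 and RAD9 among them, had a spot at or below background.

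**Figure D3:**
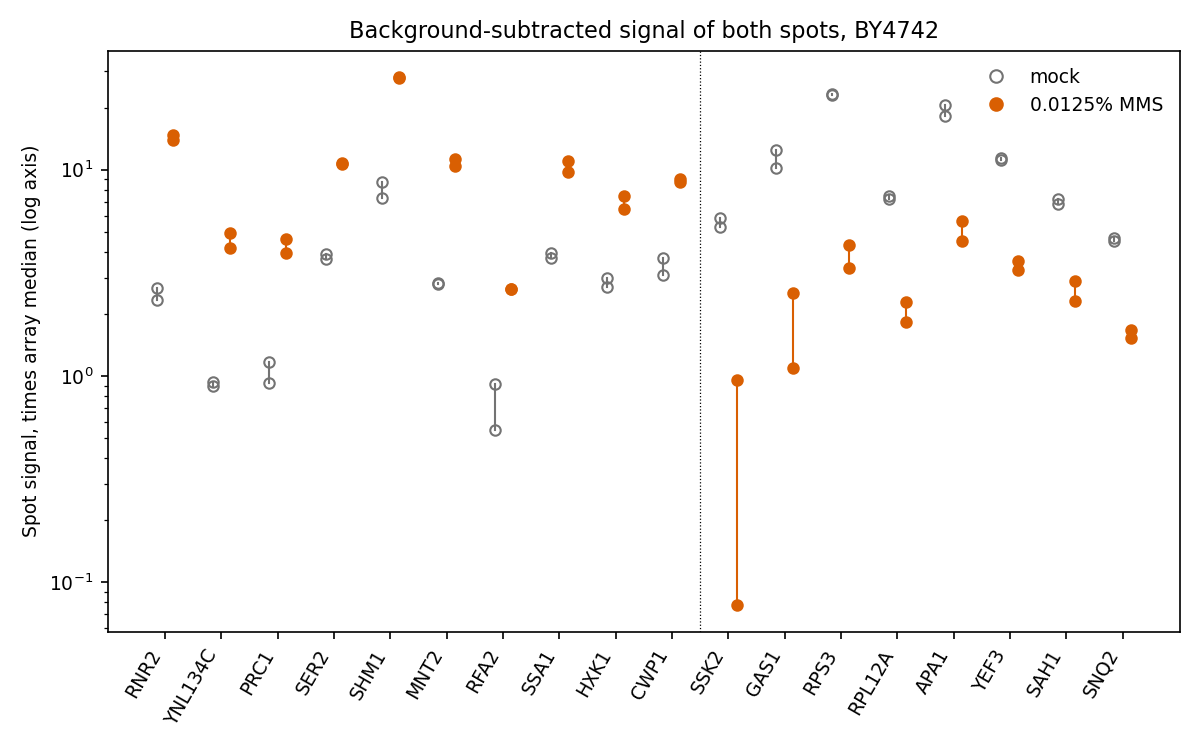
Background-subtracted signal of both spots of 18 named genes in the BY4742 mock array (open grey) and the array of 0.0125% MMS (orange), in multiples of the array's median positive spot signal on a log axis. For the 10 genes left of the dotted line both high-dose spots lie above both mock spots, and for the 8 genes on the right both lie below. All 18 were called, and the rule of the call makes such a gap likely.

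Among chaperone genes of the Hsp70 system 9 of 15 compared genes lay above 0, beside 2266 of 4940 over all genes. SSA1, a cytosolic Hsp70, had spots at 3.72 and 3.95 in mock and 9.71 and 11.1 at the high dose, a difference of 1.82 (1.63 after adjustment). Its nucleotide exchange factor gene SSE1 differed by 1.04 (1.13) and the mitochondrial Hsp70 gene SSC1 by 1.22 (0.70), and these 3 were the calls among the 15, beside 2.19% called higher over all genes. With median centring SSE1 (0.64) and SSC1 (0.87) were not called. SSA4, the stress-inducible cytosolic Hsp70, differed by 1.29 with 1 spot short of the call (1.70 and 0.88), and the ribosome-associated SSZ1 by 0.99. In contrast SSB1, which binds nascent chains, went from 4.87 and 5.40 to 3.38 and 3.50 (−0.51, and −0.49 after adjustment). The list median was 0.37, and over the alternative settings it ran from 0.05, with median centring, to 0.80. Of the Hsp90, chaperonin and disaggregase list, 1 of 22 was called. This was the constitutive Hsp90 gene HSC82, whose spots were 5.06 and 5.15 in mock and 10.1 and 9.56 at the high dose (1.26, and 1.43 after adjustment, but 0.81 and not called with median centring), and its stress-inducible twin HSP82 differed by 1.06 (1.25 and 0.87). Probes of such near-identical genes can share signal, so the split between SSA1 and its paralogues, and between the Hsp90 genes, is uncertain. The chaperonin genes CCT4 and CCT8 differed by −0.79 and −0.85, and the list median was 0.12.

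Proteasome genes showed no common shift. Of 28 compared subunit genes 15 lay above 0 and 12 below, with a median of 0.05 and 1 call, the core particle gene PRE7. This gene was dim, with spots at 0.13 and 0.09 in mock and 0.97 and 0.73 at the high dose (1.46, and 1.29 after adjustment). RPN4, the transcription factor gene of the proteasome regulon, could not be compared, since its spots were at 0.22 and 0.32 in mock and at −0.01 and 0.13 at the high dose. The list of RPN4, ubiquitin and shuttle genes had no call among 16 compared.

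In the list of thioredoxin, glutathione and peroxide defence 18 of 20 compared genes lay above 0, beside 2266 of 4940 over all genes, with a median of 0.42 (0.46 after adjustment, and 0.27 to 0.78 over the alternative settings), and none was called. The highest were SOD2, the mitochondrial superoxide dismutase gene (1.29, spots 0.89 and 1.69), PRX1, a mitochondrial peroxiredoxin gene (1.19, spots 0.82 and 1.56), and the peroxiredoxin gene AHP1 (1.10, spots 1.30 and 0.89). In the list of YAP1 and NADPH oxidoreductase genes 2 of 19 were called higher, beside 2.19% of all compared genes. YNL134C, a gene of the alcohol dehydrogenase type, had spots at 0.90 and 0.93 in mock and 4.20 and 4.92 at the high dose, with a difference of 2.21 that was 2.32 after adjustment. YDL124W, an NADPH-dependent reductase gene, went from 0.57 and 0.84 to 2.68 and 2.87 (1.65, and 1.58 after adjustment). Both genes thus had high-dose spots several times the mock spots. YAP1, the transcription factor of the oxidative stress response, was bright in both arrays (27.6 and 32.7 in mock, 30.9 and 30.5 at the high dose). Its difference was 0.40, 0.50 after adjustment and −0.08 with median centring. The old yellow enzyme gene OYE3 was dim in both arrays (0.45 and 0.47, then 0.29 and 0.37, difference −0.45, and −0.30 after adjustment).

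Of 13 hexose transporter genes 3 were called higher, beside 2.19% of all compared genes, and the list median was 0.52 before and after adjustment, with a range of 0.33 to 0.99 over the alternatives. HXT7 had spots at 4.08 and 4.18 in mock and 12.9 and 10.2 at the high dose (1.86, and 1.69 after adjustment), and HXT6 differed by 1.89 (1.45). These 2 high-affinity transporter genes are nearly identical in sequence and may be 1 signal. HXT9 differed by 1.08, and by 0.68 after adjustment and 0.62, without a call, with median centring. In glycolysis and fermentation 4 of 24 compared genes were called higher and none lower, beside 2.19% and 2.29% of all compared genes, and the median was 0.09, or −0.19 with median centring. HXK1, a hexokinase gene, had spots at 2.70 and 2.99 in mock and 6.44 and 7.48 at the high dose (1.56, and 1.60 after adjustment). The glucokinase gene GLK1 differed by 1.45 (1.48), the alcohol dehydrogenase gene ADH2, which is known to be repressed by glucose, by 1.54 (1.22), and PGK1, phosphoglycerate kinase, by 1.31 (1.20), a call lost with median centring. GLK1 overlaps the reading frame YCL042W, from which its signal cannot be separated. The abundant glycolytic genes TDH3 (−0.25), PDC1 (−0.21) and CDC19 (0.23) stayed close to mock.

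Of 8 compared vacuolar protease and autophagy genes 3 were called higher and 1 lower, beside 2.19% and 2.29% of all compared genes. PRC1, which encodes carboxypeptidase Y, had spots at 1.18 and 0.93 in mock and 4.64 and 3.97 at the high dose, a difference of 1.96 (2.08 after adjustment). The aminopeptidase gene APE3 went from 2.56 and 3.28 to 6.98 and 6.55 (1.51, and 1.32), and PEP4, proteinase A, which activates the other vacuolar hydrolases, from 5.90 and 4.74 to 10.4 and 10.4 (1.32, and 1.31). The mock and high-dose spots of these 3 genes did not overlap, as the rule of the call makes likely. APE1, another vacuolar aminopeptidase, was called lower (−1.17, and −0.83 after adjustment). With median centring PRC1 kept its call while APE3 and PEP4 (0.84) lost theirs. The list median was −0.06, and 0.31 after adjustment.

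Among genes of cell wall mannoproteins 4 of 18 were called higher and none lower, beside 2.19% and 2.29% of all compared genes, with a median of 0.04 (−0.02 with median centring). CWP1 had spots at 3.10 and 3.74 in mock and 9.04 and 8.72 at the high dose (1.75, and 1.68 after adjustment), YGP1 differed by 1.60 (1.57), TIR2 by 1.60 (1.39) and SED1, not called with median centring, by 1.18 (1.08). FIT2, a wall mannoprotein gene of siderophore uptake, was the only call of 19 compared iron uptake genes, at 1.49 and 1.36 in mock and 5.64 and 4.77 at the high dose (1.96, and 1.81 after adjustment). MNT2, a mannosyltransferase gene of O-linked glycans, went from 2.79 and 2.82 to 10.4 and 11.3 (2.34, and 1.68 after adjustment). In contrast GAS1, which encodes a glucanosyltransferase that elongates wall glucan, was among the lowest of all genes. Its spots were 12.5 and 10.3 in mock and 1.09 and 2.52 at the high dose, a difference of −2.85 (−2.09 after adjustment) with high-dose spots that disagreed with each other.

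SHM1 and SER2, which belong to separate gene lists, were among the bright higher calls. In the list of purine synthesis and one-carbon genes SHM1 was the 1 call of 16 compared genes. Of these 16, 7 lay above 0 and 9 below, with a median of −0.14 (−0.22 after adjustment). SHM1, mitochondrial serine hydroxymethyltransferase, had spots at 8.76 and 7.32 in mock and 28.1 and 27.7 at the high dose, a difference of 2.25 that was 1.38 after adjustment. The transposon position YFL-TYB, described below, had the same neighbour median as SHM1 (0.88 over 25 neighbours). SER2, the phosphatase of the last step of serine synthesis, went from 3.93 and 3.67 to 10.6 and 10.8 (1.89, and 1.83 after adjustment). Of the 47 compared amino acid genes 1, SER2, was called higher and 3 were called lower, beside 2.19% and 2.29% of all compared genes. GCN4, the transcription activator of amino acid synthesis, had spots at 3.42 and 4.14 in mock and 1.68 and 1.30 at the high dose (−1.31, and −0.79 after adjustment). HOM6, homoserine dehydrogenase, differed by −1.32 (−0.99). The list median was 0.02. In sulfur metabolism MET17, the sulfhydrylase that makes homocysteine, differed by 1.13 (1.05, and 0.71 without a call with median centring), and SAH1, which hydrolyses S-adenosylhomocysteine, by −1.47 (−1.34). MET17 overlaps the reading frame YLR302C, from which its signal cannot be separated. GAP1, the general amino acid permease gene, was the 1 call of 16 permease genes, beside 2.29% called lower over all compared genes. Its spots were at 7.03 and 6.70 in mock and 2.08 and 1.94 at the high dose (−1.81, and −1.28 after adjustment).

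Ribosomal protein genes lay below mock as a group, by less than 2-fold for most. Of 67 compared genes of the large subunit 49 lay below 0, with a median of −0.38, and of 51 of the small subunit 36 did, with a median of −0.39. The position adjustment reduced both medians to −0.24, and over the alternative settings they ran from −0.70 to −0.24 and from −0.73 to −0.21, with median centring at the low end. The calls were 7 lower and 1 higher in the large subunit and 3 lower and 1 higher in the small, beside 2.29% lower and 2.19% higher over all compared genes. RPS3, a small subunit gene, had spots at 23.1 and 23.4 in mock and 3.35 and 4.31 at the high dose, a difference of −2.52 (−1.70 after adjustment). The reading frame YOR296W, described below, had the same neighbour median as RPS3 (−0.83 over 20 neighbours). Its difference of −2.40 is also the median of a well of 3 compared genes. The part of membrane position in the values of RPS3 and YOR296W was not tested. RPL12A went from 7.48 and 7.21 to 1.83 and 2.30 (−1.84, and −1.79), and RPS27A from 12.4 and 13.5 to 3.47 and 5.60 (−1.56, and −1.15). All mock spots of these 3 genes were above all their high-dose spots, as the rule of the call makes likely. The other direction was seen in RPL15B, which differed by 1.54 (1.24), and RPS7A, by 1.18 (1.30), the latter not called with median centring. Most yeast ribosomal proteins have a near-identical paralogue, so a value for 1 copy is uncertain. YEF3, elongation factor 3, was the only call of 34 translation factor genes, at 11.4 and 11.2 in mock and 3.25 and 3.63 at the high dose (−1.75, and −1.25). None of 41 ribosome biogenesis genes was called (median −0.15, and −0.09 after adjustment). Among 38 mitochondrial ribosomal protein genes MRP49 was called lower (−1.47, and −1.21), with a list median of −0.07.

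**Figure D4:**
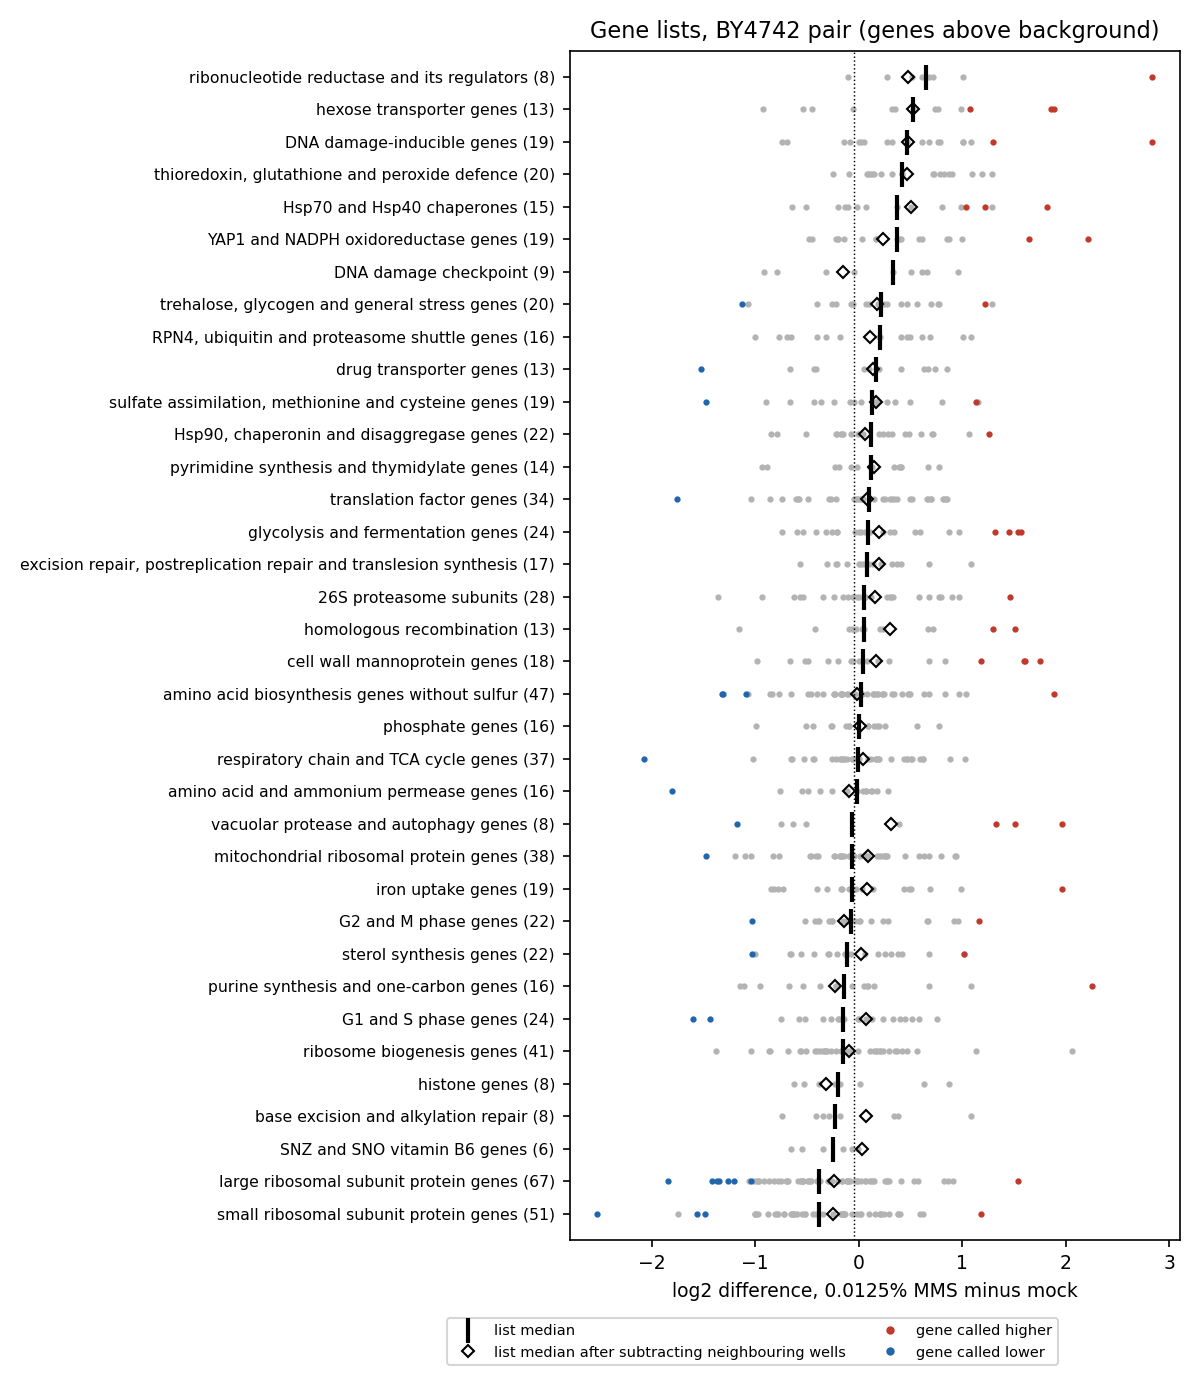
Log2 difference (0.0125% MMS minus mock) of the compared genes of 36 lists in BY4742, with the number of genes in brackets. Grey dots are genes not called, red and blue dots genes called higher and lower, black bars list medians, diamonds medians of the position-adjusted differences, and the dotted line is the median of all compared genes (−0.05). The list of ribonucleotide reductase and its regulators has the highest median (0.65) and the ribosomal protein lists the lowest (−0.38 and −0.39).

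The lowest difference of all compared genes belonged to SSK2, the kinase kinase kinase gene of the osmotic stress pathway. Its spots were 5.30 and 5.83 in mock and 0.08 and 0.96 at the high dose, where the first lay near background, so that the differences were −4.35 and −2.37 and their mean −3.36 (−3.23 after adjustment). APA1, a diadenosine tetraphosphate phosphorylase gene, went from 18.1 and 20.7 to 4.52 and 5.67 (−1.81, and −1.56). NDI1, the internal NADH dehydrogenase of mitochondria, was the 1 call of 37 respiratory genes (−2.07, and −1.69), and SPR1, a glucanase gene known from sporulation, differed by −2.58 (−1.97). SNQ2, a multidrug transporter gene, had spots at 4.66 and 4.50 in mock and 1.53 and 1.68 at the high dose (−1.52, and −1.24). Its relative PDR5 differed by −0.66 (−0.28 after adjustment). PDR5 and NDI1 had the same neighbour median (−0.38 over 27 neighbours), so their values are not separate in position. Among cell cycle genes MCM6, a subunit of the replicative helicase (−1.60, and −1.16), and SWI6, the shared subunit of the start transcription factors (−1.44, and −0.82), were called lower of 24 genes of G1 and S phase. Over all compared genes 2.29% were called lower. Of 22 genes of G2 and M phase the cyclin kinase inhibitor gene SIC1 was called lower (−1.03, and −0.62) and the anaphase promoting complex gene APC1 higher (1.16, and 0.84, a call lost with median centring).

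General stress genes showed calls in both directions. GLC3, the glycogen branching enzyme gene, had spots at 0.59 and 0.60 in mock and 1.87 and 1.93 at the high dose (1.22, and 0.85 after adjustment). HSP12, a membrane-associated small heat shock gene, had spots at 4.87 and 4.80 in mock and 2.25 and 2.15 at the high dose (−1.13, and −0.52 after adjustment). In the trehalose, glycogen and general stress list 1 of 20 compared genes was called higher and 1 lower, beside 2.19% and 2.29% of all compared genes. The list median was 0.21. In sterol synthesis ERG6 was called higher (1.01, and 1.04, but not with median centring) and ERG27 lower (−1.03, and −0.55), and the 22 compared genes had a median of −0.12. No gene was called among 16 phosphate genes, 14 of pyrimidine synthesis or 8 histone genes. The 6 SNZ and SNO genes of vitamin B6 lay between −0.66 and 0.00, with a median that moved from −0.25 to 0.03 on adjustment.

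Some of the strongest calls belonged to reading frames with no symbol, and 10 genes called higher and 5 called lower had no entry in the reference gene table. YCR013C was the brightest of them, with spots at 15.9 and 16.4 in mock and 59.8 and 48.7 at the high dose (2.14, and 1.44 after adjustment). YBR075W had mock spots of 0.92 and 0.26 that disagreed and high-dose spots of 3.70 and 4.17 (2.48, and 1.78). These 2 frames had the same neighbour median (0.69 over 35 neighbours), so their high values are not separate in position. Neither YCR013C nor YBR075W has an entry in that table. Overlap with another gene, given above for GLK1 and MET17, was therefore not checked for them, and their signal may not be their own. On the low side YOR296W went from 6.68 and 6.87 to 0.61 and 2.45 (−2.40, and −1.57). It had the same neighbour median as RPS3 (−0.83), so these 2 low values are not separate in position. A gene bright in only 1 array was left out of the comparison by the rule on background. TOS7 had spots at 6.06 and 5.63 in mock and at −0.02 and −0.01 at the high dose, LEU9 at 1.17 and 1.83, then −0.05 and −0.34, and PRP18 at −0.13 and −0.20 in mock and 1.53 and 1.05 at the high dose. These 3 were the only genes with both spots above the array median on one side and at or below background on the other, and no ratio is given for them.

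The same dose was given to FF18984 in YPD, and that strain's arrays share no control with the BY4742 pair. Across the 2821 genes compared in both strains at 1 h, the log2 differences of the strains had a Pearson correlation of 0.11, and across 4120 genes for FF18984 at 30 min 0.09. These describe genes on separate membranes and have no test. Of the 78 genes called higher in BY4742 that were compared in FF18984 at 1 h, 18 were called higher there by the same rule (23.1%), where 12.5% of all shared genes were (12.3% of all genes compared in that pair), and they made up 5.11% of the 352 called higher in FF18984. They included RNR2, YNL134C, SSA1, SSC1, HSC82, PEP4, SHM1 and ADH2. Of the 68 genes called lower, 4 were also called lower at 1 h (5.88%, against 6.81% of all shared genes and 6.56% of all in that pair, and 2.08% of the 192 called lower in FF18984), namely ESL1, NDL1, RPL9A and SWI6. At 30 min the numbers were 10 of 101 higher (9.90% against 5.41%) and 15 of 100 lower (against 6.29%), which were 4.48% and 5.79% of the FF18984 calls. Over all genes compared in that pair 5.08% were called higher and 6.34% lower. In the F1 pairs, which differ from BY4742 in medium, the shares of higher calls ran below those of all shared genes. They were 4 of 101 at 30 min (3.96% against 9.99%, and 1.04% of the 383 called higher there) and 4 of 88 at 1 h (4.55% against 7.01%, and 1.86% of 215). Lower calls shared with F1 were 5 of 93 at 30 min (5.38% against 9.53%, and 1.37% of the 365 called lower there). At 1 h they were 2 of 65 (3.08% against 0.978%, and 6.67% of 30). Across genes the correlation with BY4742 was −0.11 in F1 at 30 min and 0.04 at 1 h. Of the 101 higher calls 22 lay above 0 at 30 min (21.8%, against 42.9% of all shared genes), and of the 88 at 1 h 54 did (61.4% against 58.2%).

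**Figure D5:**
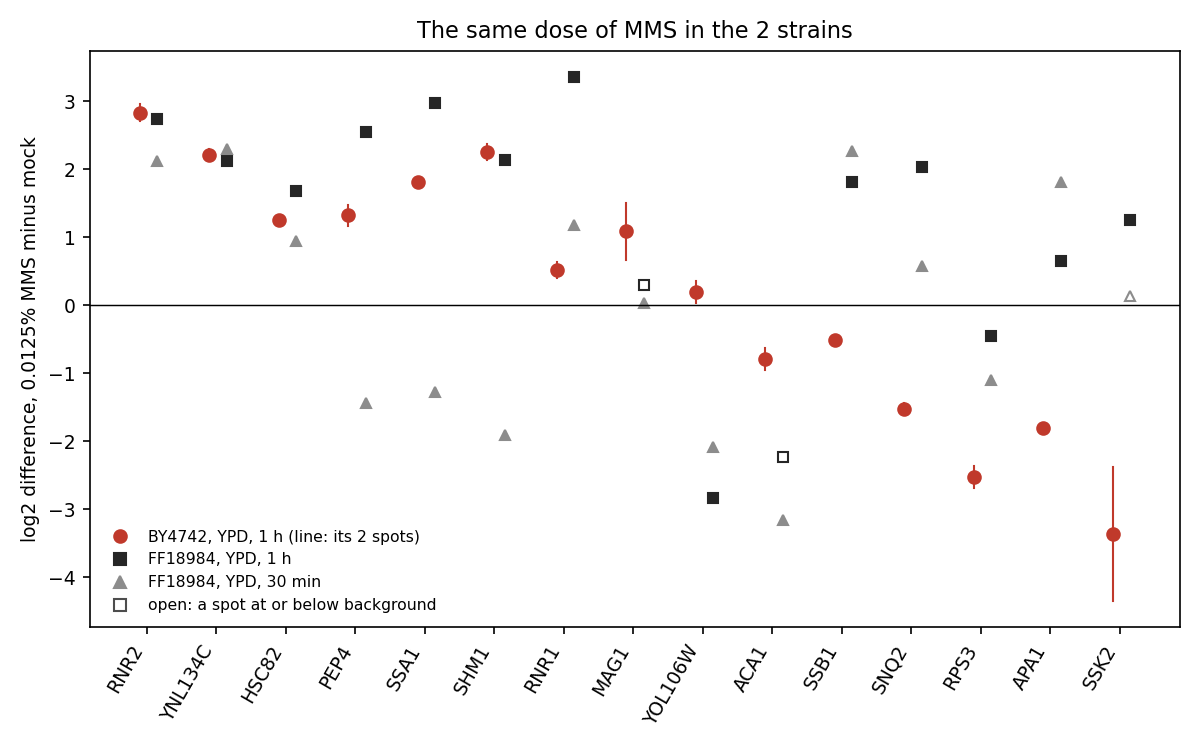
Log2 difference (0.0125% MMS minus mock) of 15 named genes in the BY4742 pair (red, with a line between its 2 spots) and in the FF18984 YPD pairs at 1 h (squares) and 30 min (triangles), with open symbols where a spot lay at or below background. RNR2 and YNL134C lie above 2 in every pair shown, while APA1, SNQ2 and SSB1 lie below 0 in BY4742 and above 0 in both FF18984 pairs.

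Over the 4 FF18984 sets of mock and high-dose arrays 5 of 6094 genes (0.082%) passed limma's test of the high dose with membrane set as a block and Benjamini-Hochberg adjustment. RNR2 rose there by 2.62 ± 0.34 (SE, adjusted p = 0.0097), beside 2.83 in BY4742, and YNL134C by 1.96 ± 0.32 (adjusted p = 0.033), beside 2.21. RNR1 rose by 2.16 ± 0.35 (adjusted p = 0.033) in FF18984, with 3.36 in its YPD pair at 1 h, where the BY4742 difference was 0.52. The bZIP factor gene ACA1 fell by 2.04 ± 0.32 and YOL106W by 1.98 ± 0.33 (adjusted p = 0.033 for each). By limma no gene passed with median centring (834 at an unadjusted p under 0.05), or when any set other than F1 at 30 min was left out (611 to 801). In BY4742 ACA1 went from 9.61 and 9.42 to 4.60 and 5.67 (−0.79, and −1.03 after adjustment) and YOL106W from 3.21 and 2.79 to 3.05 and 3.38 (0.20). SHM1 and SSA1 differed by 2.14 and 2.98 in the FF18984 YPD pair at 1 h but by −1.91 and −1.28 at 30 min.

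The interaction of strain with the high dose was tested in limma on all 14 arrays. Its FF18984 effect was a single effect pooled over the 4 sets, and so over both media and both times. The BY4742 effect came from YPD at the longer time only. The test therefore mixes strain with medium and time, and cannot assign a difference to strain alone. No gene passed at an adjusted p under 0.05 (0 of 6094, or 0%), 189 had an unadjusted p under 0.05, and the smallest adjusted p was 0.370. The median standard error of the difference was 0.83 on the log2 scale. The spread came from the 4 FF18984 sets alone, since the lone BY4742 pair was assumed to vary like them. That spread includes any differences in the dose effect between media and times. Of the compared genes SSK2 had the smallest p, with a BY4742 effect minus FF18984 effect of −3.79 on the log2 scale (adjusted p = 0.385), and SER2 followed with 2.33 (adjusted p = 0.998). A p that misses the threshold does not show that the strains responded alike.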

How the data were processed

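Intensity was deposited by the authors as spot integral and local background, and as the one minus the other, per the file headers, in PSL units for the 2 BY4742 arrays. The software and any normalization are not given in the sources used here. The background-subtracted intensity of both spots was divided by the array's median positive value, values below 0 were set to 0, 0.187 was added to every value as a pseudocount (the 10th percentile of positive scaled values), and log2 values of the spots were averaged and quantile normalized over the 14 arrays in limma 3.58.1 (R 4.3.3). Of the 6094 reading frames, 5567 were named from the reference gene table (RefSeq). The files name no genome build, so no positions on the genome are given.

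A gene was compared when both spots were above 0 in both BY4742 arrays. With 1 array a side, calls rest on size (2-fold on each spot after normalization) and have no test. FF18984 and the strain-by-dose interaction were fitted in limma (lmFit, eBayes with trend, membrane set as a block, Benjamini-Hochberg over all genes). Both kinds of step were tested on simulated data. The p-values measure the spread between these samples, which the labels do not say came from separate cultures.

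Shares of genes at or below background were 11.7% in mock and 8.02% at the high dose, and Spearman correlations between spots were 0.910 and 0.939. The number of arrays limits the precision. Named genes were the 15 largest calls per direction among genes at or above the median level, up to 3 called members per list, a fixed set of damage and stress genes (HUG1 among it, which was not measured), the genes that passed in FF18984 and the 5 per direction with the smallest interaction p, from which the text takes those it needs. Other called members of a list, the members named without a call, and the 3 genes bright in 1 array were chosen after their values were seen. The comparison and the gene lists were chosen with earlier results of these data known. Alternatives were cyclic loess, median centring, 4 times the pseudocount, no background correction, the authors' deposited series table of intensity values (its scale is not stated), a higher floor, no filter, the pair alone, single spots and a 3-fold call, and, after seeing the data, the position adjustment and genes with neighbour medians within 0.3 of 0. Tables and plots were made in Python 3.11.15 (pandas 2.3.3, numpy 2.4.6, matplotlib 3.10.9).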

Additional observations from a re-analysis of the deposited data

Results flagged for a closer look

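APA1 was lower in BY4742 by −1.81 on the log2 scale, while all 4 FF18984 pairs of mock and high dose lay above 0, at 3.44 and 0.10 in F1 medium (30 min and 1 h) and 1.81 and 0.66 in YPD. The BY4742 effect minus the FF18984 effect pooled over these 4 pairs was −3.31 and did not pass limma's interaction test. This difference mixes strain with medium and time.

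Signal was also present outside the named genes. Of 685 membrane positions that carry no name, 54 were brighter than the array median on both spots of both BY4742 arrays (73 in mock and 72 at the high dose). Among these 54 the high dose minus mock ranged from −1.19 to 1.12 with a median of −0.17, and 1 was higher and 2 were lower by 2-fold or more.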

How the results depend on the processing

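Beside the 108 genes called higher and 113 lower, no background correction gave 14 and 5, 4 times the pseudocount 50 and 43, a floor at the 95th percentile of unnamed positions 31 and 26 of 1013 genes, the pair alone without a pseudocount 203 and 220, spot 1 alone 278 and 243, spot 2 alone 251 and 223, and a 3-fold call 19 and 16. With median centring the counts were 91 and 162, of which 68 and 113 were among the calls reported, with cyclic loess 101 and 131 (77 and 105 among them), 122 and 104 in the values of the deposited series table, and with no filter 143 and 132. The position adjustment gave 74 and 49, and genes with a neighbour median within 0.3 of 0 gave 64 and 38 of 3684. Of the calls, 48.9% were higher as reported, 36.0% with median centring, 73.7% with no background correction, 60.2% after position adjustment and 62.7% in wells with a small neighbour median. HOM6 changed sign with no background correction (0.057), the only 1 of 693 gene values under alternatives to do so while called, and 347 others moved by more than their spot SD. RNR2 stayed between 1.88 and 2.94, YNL134C between 1.44 and 2.34, SSK2 between −4.50 and −1.71 and RPS3 between −2.74 and −1.45. Of the called genes on the lists or named, 14 of 40 higher and 0 of 35 lower lost their call with median centring. Of 425 list medians under alternatives, 223 moved by more than the spot SD.

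The strain-by-dose test in limma gave 0 genes under every alternative run, with 158 to 270 at an unadjusted p under 0.05. The 5 genes that passed in FF18984 became 0 with median centring, 1 with cyclic loess and 2 with no background correction, and 0 to 11 when 1 of the 4 sets was left out (11 without F1 30 min, 0 without any other). The cause of these changes was not tested. No paired analysis was possible because each BY4742 condition has 1 array and the labels number no replicates. Dim genes are limited by signal over background: 1154 genes were not compared. No value here has an error from repeated cultures.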

Other observations

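Transposon positions had list medians near 0 in the larger families of BY4742. Before quantile normalization the median log2 difference was −0.17 over 29 positions of TY1A, −0.07 over 31 of TY1B, 0.00 over 9 of TY2A and −0.14 over 9 of TY2B, and single positions of these ran from −1.36 to 1.39. With 2 positions each, the medians were −0.03 for TY3A, −0.54 for TY3B (−1.06 and −0.01), −0.16 for TY4A and −0.21 for TY4B. Copies of 1 family share sequence, so their positions are not independent. One position with a transposon name, YFL-TYB, was called higher, with spots at 1.06 and 1.57 in mock and 6.89 and 4.79 at the high dose (2.24, and 1.36 after position adjustment). It had the same neighbour median as SHM1 (0.88 over 25 neighbours), so these 2 high values are not separate in position.

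The calls were spread unevenly over the printing plates. Plate 12 held 26 of the 113 lower calls, which was 7.67% of its 339 compared genes, and plate 4 held 16 of the 108 higher calls, 5.26% of its 304, while plate 18 held none among 209.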
